A study of Mus musculus with 24 samples.

Results

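The genes described here are 9 Krüppel-like factors: Klf2, Klf3, Klf5, Klf6, Klf7, Klf9, Klf10, Klf12 and Klf13. They are 9 of the 21631 protein-coding genes on the 19 autosomes and the X chromosome, and each was taken with 5 kb on either side in mm10. Of 234820 peaks in 24 lists, 254 overlapped these windows, 84 of CFP1 and 170 of H3K4me3. The assay was CUT&Tag, where a transposase tethered to an antibody cuts the chromatin around the bound protein or mark. Group 3 innate lymphoid cells (ILC3s), gut lymphocytes that make interleukin-22 and interleukin-17, were sorted from mouse small intestine as CCR6+, NKp46+ and DN subsets, with 2 libraries for each antibody, genotype and subset. Control cells carried Cxxc1flox/flox alleles without Cre (here WT), and the other cells (here KO) carried the same floxed alleles with a Cre. Both genotypes are therefore homozygous for the floxed allele, and an effect of Cre itself cannot be told apart from one of the deletion. Mice were 6 to 8 weeks old by the label of age, while their protocol text also speaks of aged and young animals and of a culture medium, so age and handling are not settled. No label ties a library to its own animal, and the p-values thus cover no more than the scatter of these libraries, possibly a technical one.

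Krüppel-like factors share C-terminal zinc fingers that read GC-rich and CACCC sequences, and members either activate or repress their targets. Klf2 holds naive T cells quiescent and drives their trafficking genes, Klf3 and Klf12 repress through the corepressor CtBP, Klf9 and Klf13 recruit Sin3A, Klf10 is an early target of TGF-β, Klf6 is an early response gene, Klf7 is best known from neurons and Klf5 from proliferating crypt epithelium. CFP1, the product of Cxxc1, binds unmethylated CpG DNA and is a subunit of the SET1 complexes, which trimethylate lysine 4 of histone H3 (H3K4me3), found at active promoters. The question put to these genes is whether CFP1 was found at them, whether it was found less in KO cells, and whether H3K4me3 over them differed.

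The bases just before the start are shown for 5 members that range from CFP1 in all libraries to CFP1 in none, since CpG dinucleotides are what CFP1 recognises. They are the 250 bases before the start listed by RefSeq (GRCm38.p6), 5′ to 3′ on the gene's strand, with every CG in capitals. Klf2 (chr8:72318812-72319061, plus strand) had CFP1 in 5 WT and 1 KO libraries, Klf9 (chr19:23140976-23141225, plus) in 6 and 4, and Klf13 (chr7:63938916-63939165, minus) in 6 and 6, counted over the gene with 5 kb on either side. Over the printed bases themselves the counts were the same for Klf2 and Klf13, and 6 and 3 for Klf9. Klf7 (chr1:64121390-64121639, minus) had CFP1 in 6 and 6 libraries, but no CFP1 peak reached these bases. They lie inside the annotated Klf7 gene, whose outer end is at 64122345. Klf12 (chr14:100149797-100150046, minus) had no CFP1, and its listed start lies inside the annotated gene, where no H3K4me3 peak was called either.
Klf2: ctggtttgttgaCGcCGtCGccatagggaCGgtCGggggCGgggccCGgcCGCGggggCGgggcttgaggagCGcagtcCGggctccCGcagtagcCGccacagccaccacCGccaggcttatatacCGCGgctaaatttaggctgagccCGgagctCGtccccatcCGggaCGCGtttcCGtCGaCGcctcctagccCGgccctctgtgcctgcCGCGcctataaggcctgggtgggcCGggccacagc
Klf9: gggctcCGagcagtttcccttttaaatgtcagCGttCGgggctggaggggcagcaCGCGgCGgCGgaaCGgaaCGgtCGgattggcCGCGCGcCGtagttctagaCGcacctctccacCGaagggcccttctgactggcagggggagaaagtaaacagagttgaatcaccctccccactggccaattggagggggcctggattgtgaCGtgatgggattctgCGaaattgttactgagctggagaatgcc
Klf13: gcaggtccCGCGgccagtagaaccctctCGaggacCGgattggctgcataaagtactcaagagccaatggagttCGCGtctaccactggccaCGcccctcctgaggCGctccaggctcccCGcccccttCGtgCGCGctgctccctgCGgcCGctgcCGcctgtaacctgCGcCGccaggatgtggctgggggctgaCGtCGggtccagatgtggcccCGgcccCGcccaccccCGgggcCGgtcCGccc
Klf7: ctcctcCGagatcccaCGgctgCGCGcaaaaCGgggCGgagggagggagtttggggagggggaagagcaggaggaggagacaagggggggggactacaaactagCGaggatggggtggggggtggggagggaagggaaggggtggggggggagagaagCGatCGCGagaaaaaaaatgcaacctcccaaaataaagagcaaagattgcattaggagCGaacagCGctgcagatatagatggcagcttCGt
Klf12: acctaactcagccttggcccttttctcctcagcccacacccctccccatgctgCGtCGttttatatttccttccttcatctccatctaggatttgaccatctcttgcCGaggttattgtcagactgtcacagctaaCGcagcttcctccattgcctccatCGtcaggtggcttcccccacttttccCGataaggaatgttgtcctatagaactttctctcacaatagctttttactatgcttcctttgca

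Klf2 had 29 CGs in these bases, and 6.78% of the 32851 promoters in the RefSeq table had as many or more. Klf13 had 24, Klf3 23, Klf6 21 and Klf9 18 CGs, against a median of 6 over all promoters. Klf7 had 13 and Klf12 6. Among coding genes with 1 listed start and H3K4me3 in 12 libraries, the median was 19 CGs for 186 genes with CFP1 in 12 libraries, 17 for 5606 with CFP1 in 1 to 11, and 13 for 1298 with CFP1 in none. In coding genes with no H3K4me3 it was 2. The encoded proteins read CACCC and GC boxes, so CACCC and GGGCGG were counted here on both strands, where they may share letters. CACCC or its complement occurred 5 times before Klf3, 3 times before Klf7, once each before Klf2, Klf9, Klf12 and Klf13, and was not in the Klf6 window, while 52.0% of all promoters held it, 54.3% of those with both marks in 12 libraries and 55.0% of those with H3K4me3 in 12 and CFP1 in 1 to 11. GGGCGG occurred 6 times before Klf3, 3 times before Klf13, 2 times before Klf2, once before Klf6 and Klf7 and not before Klf9 or Klf12, while 32.7% of all promoters held it, and 68.8% and 63.2% of the same 2 classes. A match describes letters and is not a binding site.

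The lists differ in length, and the differences touch every comparison of called peaks. CFP1 lists held 4574 to 7983 peaks in WT and 714 to 8881 in KO. The 2 longest KO lists, NKp46+ replicate 2 (4891 peaks) and DN replicate 2 (8881), stand apart from the other 4 (714 to 1312), so the tests of CFP1 between genotypes are given with and without them. These 2 lists were picked by their number of CFP1 peaks, which is close to the quantity tested. Leaving them out therefore favours lower KO values, and p-values without them are descriptive only. H3K4me3 lists held 12838 to 15397 peaks in WT and 11794 to 18127 in KO, and median peak widths were 791 to 976 b in replicate 1 against 1078 to 1193 b in replicate 2. The lists carry no read totals, so depth is unknown and a missing peak means that none was called. At Cxxc1 itself CFP1 was called in 2 WT and 0 KO libraries and H3K4me3 in 6 and 6, which does not check the deletion, since its place in the gene is not given. H3K4me3 lay at 10 of 12 ILC3 markers in every WT library and at 6 to 10 in KO libraries. It lay at Ncr1 in 4 WT and 2 KO libraries. Il22 and Il17a had it in no library. T cell markers had it at 3 to 6 of 6 in WT and 2 to 6 in KO (Cd3e in 6 and 5 libraries), and B cell markers at 1 of 5 throughout (Cd79a in 12 libraries, Ms4a1 in 0). Myeloid markers had it at 0 to 2 of 5 in WT and 0 to 3 in KO (Cd14 in 5 and 5 libraries, Csf1r in 0), and epithelial markers at 1 to 2 of 5 in both (Epcam in 6 and 6, Cdh1 in 5 and 5, Vil1 in 0). Stromal and endothelial markers had it at 1 to 3 of 5 in both, with Col1a1 in 3 WT and 6 KO libraries, Pdgfra in 1 and 4, Pecam1 in 6 and 3, and Cdh5 in 0. The part of cell composition in the results was not tested, and in sorted populations fewer cells with a mark cannot be told apart from less of it per cell.

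CFP1 was called at 7 of the 9 members and at Klf5 and Klf12 in no library. Over all coding genes 53.7% had no CFP1 peak in any library, and among the 10934 genes with H3K4me3 in 12 libraries that share was 17.9%. Klf7 and Klf13 held CFP1 in all 12 libraries, as did 1.31% of coding genes. Klf10 had it in 6 WT and 5 KO libraries, Klf9 in 6 and 4, Klf6 in 5 and 2, Klf2 in 5 and 1, and Klf3 in 3 and 1. A WT library held CFP1 at 5 to 7 of the members (median 6) and a KO library at 3 to 7 (median 3.5). Among KO libraries, 7 was reached only in DN replicate 2. Of the 84 CFP1 peaks, 80 overlapped an H3K4me3 peak of the same genotype and subset by 1 b or more, and the other 4 were 1 at Klf7 and 3 at Klf13. That is 95.2%, beside 86.3% of all 53940 CFP1 peaks and 91.2% of the 46744 in the window of any coding gene.

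**Figure D1:**
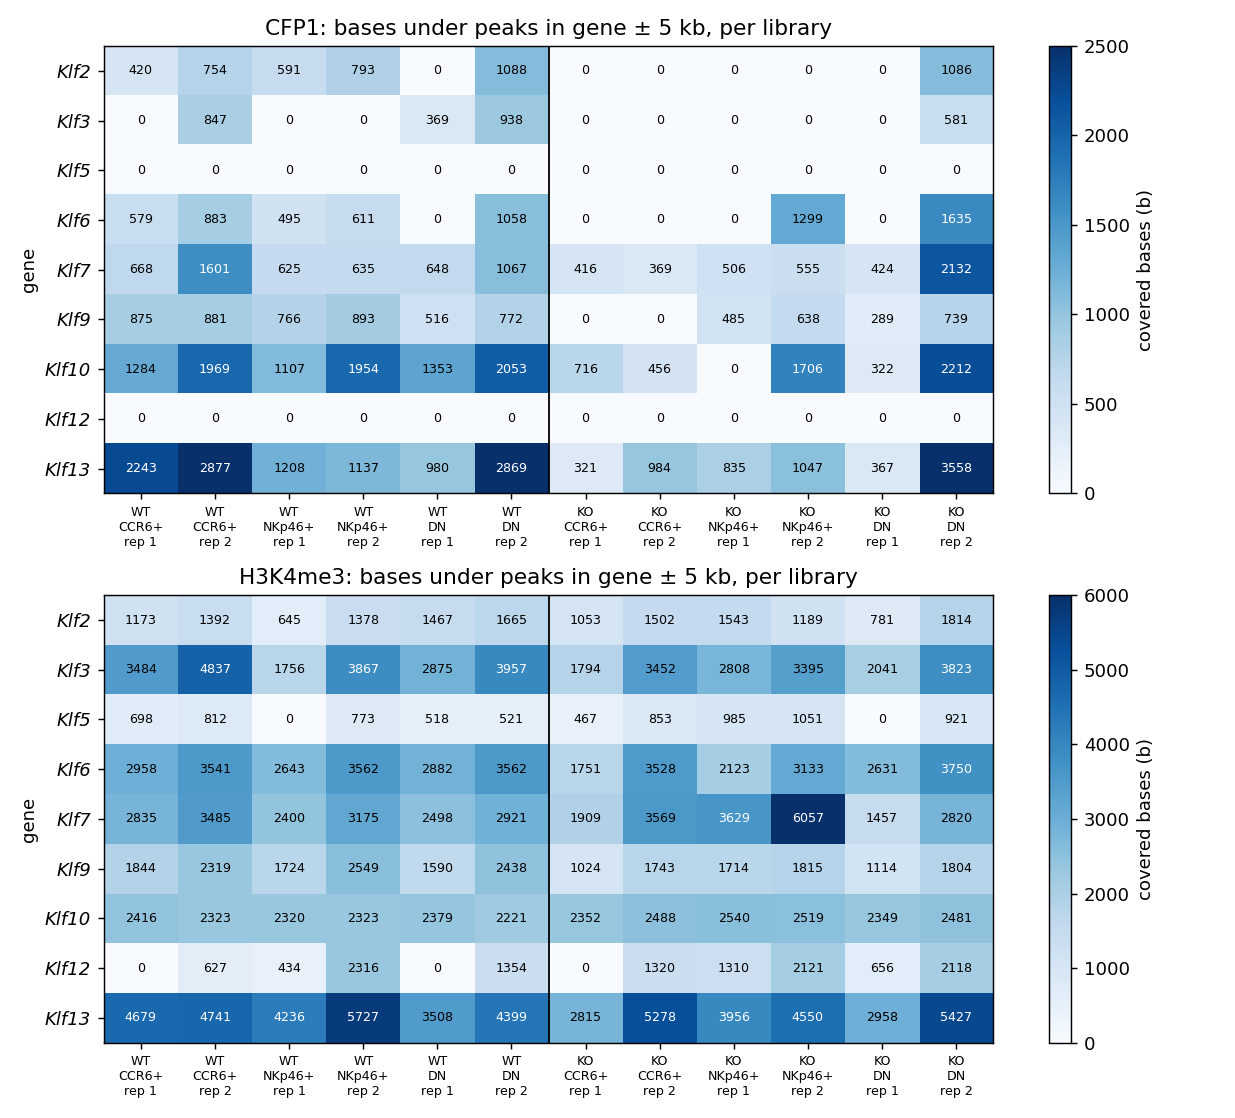
Bases under CFP1 peaks (top) and H3K4me3 peaks (bottom) in each gene with 5 kb on either side, 1 column per library, WT left of the line and KO right; darker means more covered bases, and the colour scales of the panels differ. Klf5 and Klf12 have 0 CFP1 bases throughout, and KO DN replicate 2 holds CFP1 at the other 7 members.

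At Klf2, CFP1 covered 420 and 754 b in WT CCR6+, 591 and 793 b in WT NKp46+, and 0 and 1088 b in WT DN libraries (replicates 1 and 2). In KO cells it covered 0 b in 5 libraries and 1086 b in DN replicate 2. So 5 of 6 WT libraries lay above 5 of 6 KO libraries, and the ranges overlapped through 1 library of each genotype. At Klf3, CFP1 covered 847 b in WT CCR6+ replicate 2, 369 and 938 b in WT DN, 581 b in KO DN replicate 2, and 0 b in the other libraries, NKp46+ included. At Klf6 it covered 579 and 883 b in WT CCR6+, 495 and 611 b in WT NKp46+, and 0 and 1058 b in WT DN libraries. KO libraries had 0 b in CCR6+, 0 and 1299 b in NKp46+ and 0 and 1635 b in DN cells. At these 3 genes every KO peak came from replicate 2.

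Presence of CFP1 was compared between 6 WT and 6 KO libraries by two-sided Fisher's exact tests over the 7711 genes where 2 to 10 libraries held CFP1, with Benjamini-Hochberg adjustment. None of the 4 members tested passed (0.0% of genes did). The adjusted p was 0.319 for Klf2 (Fisher's exact p = 0.0801, n = 6 and 6), 0.485 for Klf6, 0.698 for Klf9 and 0.734 for Klf3. Fewer KO than WT libraries were found at 5 of the 9 members (at all 4 tested) and at 88.7% of all genes tested. An excess of 4 or more WT libraries, as at Klf2, was found at 25.1% of them. Unadjusted p-values under 0.05 were reached by 495 genes (6.42%), each with fewer KO libraries and no member among them, and by 61 with the replicate number as a block, 511 to 1612 without single libraries (1612 without KO DN replicate 2) and 2677 without the 2 long KO lists. Without the 2 long KO lists, Klf2 and Klf6 each had CFP1 in 5 of 6 WT and 0 of 4 KO libraries (adjusted p = 0.128, Fisher's exact test), Klf3 in 3 and 0 (adjusted p = 0.258) and Klf9 in 6 and 2 (adjusted p = 0.227), while 979 genes passed. Without KO DN replicate 2 alone, 340 genes passed and no member did.

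Klf9, a repressor that glucocorticoid and thyroid hormone induce in several tissues, had CFP1 in every WT library over 516 to 893 b (median 823.5). In KO cells it had 0 and 0 b in CCR6+, 485 and 638 b in NKp46+, and 289 and 739 b in DN libraries (median 387). WT averaged 784 ± 143 b (SD, n = 6) and KO 359 ± 316 b, 2.19-fold more in WT, and only the lowest WT library fell within the KO range. An exact two-sided permutation of genotype within subsets gave p = 0.0278 before and 0.171 after adjustment over 8364 genes, where 0 genes passed (0.0%) and 1733 (20.7%) had an unadjusted p under 0.05, or 1059 with the replicate number as a block, 1078 to 3046 without single libraries (without replicate 1 and replicate 2 of KO DN) and 2880 without the 2 long KO lists. KO less WT was −461 b within replicate 1, −390 b within replicate 2 and −526 b without the 2 long KO lists (adjusted p = 0.0618, exact permutation). Without those lists fewer arrangements remain, and the unadjusted permutation p of 0.0185 was the smallest they allow. In that setting 0 of 7828 genes passed, so 0.0618 is not a near miss particular to Klf9. Leaving out WT NKp46+ or WT DN of replicate 2 or KO DN of replicate 1 took its unadjusted p above 0.05 (0.0556 to 0.0833, exact permutation).

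Klf10, which encodes a TGF-β-inducible repressor, had CFP1 in all libraries but KO NKp46+ replicate 1. WT libraries had 1284 and 1969 b in CCR6+, 1107 and 1954 b in NKp46+ and 1353 and 2053 b in DN cells. KO libraries had 716 and 456 b, 0 and 1706 b, and 322 and 2212 b in the same order. The 2 long KO lists thus lay within or above the WT range and the other 4 below it. WT averaged 1620 ± 417 b and KO 902 ± 866 b (SD, n = 6, exact permutation p = 0.139, adjusted p = 0.335). KO less WT was −718 b, −403 b without KO DN replicate 1, −1033 b without KO DN replicate 2, and −1317 b without both long lists (adjusted p = 0.0618, exact permutation). The unadjusted permutation p without both lists, 0.0185, was again the smallest possible there.

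Klf7 and Klf13 held CFP1 in all libraries of both genotypes. At Klf7, WT libraries had 625 to 1601 b (median 658) and KO libraries 369 to 2132 b (median 465). All KO libraries except DN replicate 2 had 369 to 555 b, below the lowest WT library. The Klf7 peak had the highest median percentile among the members in WT lists, 77.8 (69.3 to 90.6) by the authors' fold enrichment, which was 6.57 to 8.99. At Klf13, which in human T cells drives the chemokine gene Ccl5, WT libraries had 980 to 2877 b (median 1725.5) and KO libraries 321 to 3558 b (median 909.5). Means were lower in KO at both genes (874 against 734 b, exact permutation p = 0.63, and 1886 against 1185 b, p = 0.306), at all 7 members with CFP1, and at 91.5% of the 8364 genes. Among the 283 genes with CFP1 in 12 libraries the share was 98.2%. With only 1 kb around both gene ends and all libraries kept, KO less WT was −154.5 b at Klf7 (exact permutation p = 0.0278, adjusted p = 0.143). It was −591.5 b at Klf13 (exact permutation p = 0.0463, adjusted p = 0.189) and −336 b at Klf6 (p = 0.167, adjusted p = 0.31). In that setting 1527 of 6247 genes had an unadjusted p under 0.05, and 0 passed. Without the 2 long KO lists, KO less WT went from −140 to −433 b at Klf7 and from −700 to −1268 b at Klf13 (exact permutation p = 0.0556, adjusted p = 0.117 at both). At Klf13 it was −168.5 b without KO DN replicate 1 and −1232 b without KO DN replicate 2. At Klf6 WT averaged 604 b and KO 489 b, and all KO bases came from the 2 long lists. The difference was −115 b with them and −604 b without (exact permutation p = 0.0741, adjusted p = 0.144), while within replicate 2, which holds both, KO was higher, 978 against 851 b.

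**Figure D2:**
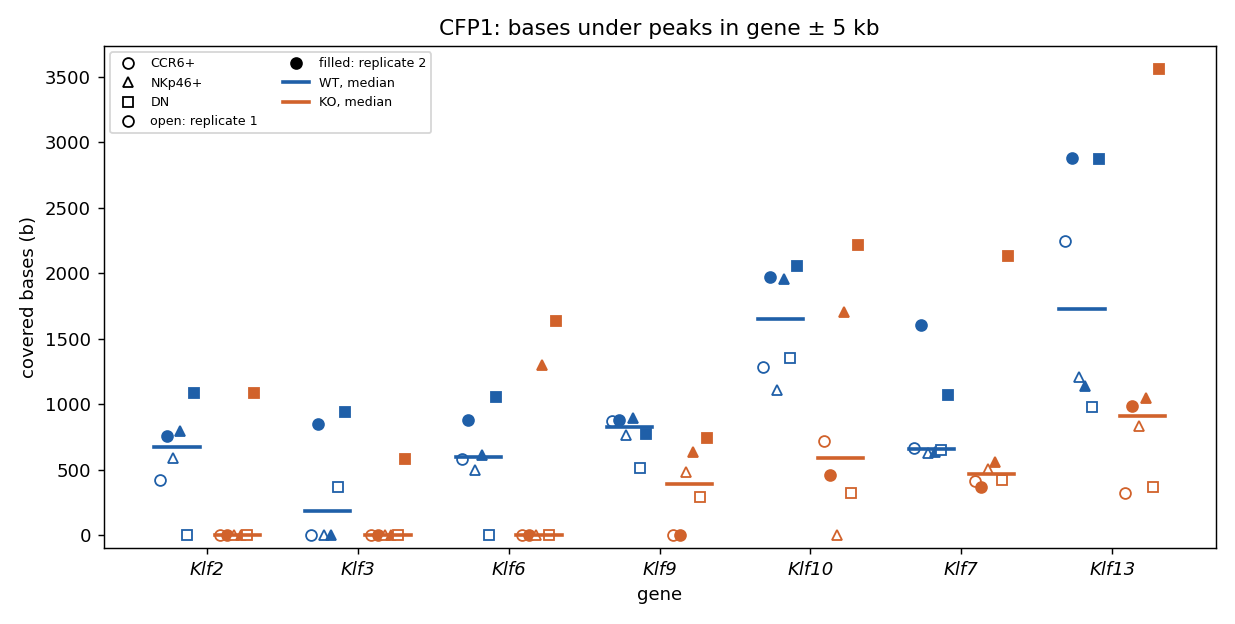
CFP1 covered bases in each library for the 7 members that held CFP1; bars are medians of 6 libraries, colours give genotype, shapes subsets and filled symbols replicate 2. At Klf9 only the lowest WT library (516 b) lies within the KO range, and the filled orange square, KO DN replicate 2, is the highest KO point at every gene shown.

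CFP1 was also compared between subsets (4 libraries against 8, two-sided Fisher's exact test, Benjamini-Hochberg adjusted), where 0 of 7711 genes passed (0.0%). Klf3 came closest among the members, with CFP1 in 3 of 4 DN, 1 of 4 CCR6+ and 0 of 4 NKp46+ libraries (DN against the others, Fisher's exact p = 0.0667, adjusted p = 1.0). Klf9 had it in 2 of 4 CCR6+ and in all 8 other libraries (Fisher's exact p = 0.0909, adjusted p = 1.0), both missing libraries being KO. The other 2 tested members, Klf2 and Klf6, had 2 to 3 libraries in each subset.

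CFP1 and H3K4me3 summits were set beside each other at 6 members with a listed start and both marks within 1000 b of it, with negative positions upstream. The median CFP1 summit lay at 16 b at Klf2, −195.5 b at Klf3, −288 b at Klf9, −368.5 b at Klf13, −438 b at Klf6 and −531.5 b at Klf7. The median H3K4me3 summit lay downstream of the start at 5 of them, by 80.5 b at Klf9 to 400.5 b at Klf6. At Klf7 it lay at −575.5 b. The listed Klf7 start is inside the annotated gene, and both median summits, though upstream of that start, lay within the gene. The CFP1 summit was the more upstream at 5 of the 6, and at 67.4% of 4895 coding genes measured the same way. Over those genes the median summit was at 72.5 b for CFP1 and 152 b for H3K4me3, both downstream. H3K4me3 reached 2227.5 b past the start at Klf6 and 2293.5 b at Klf13, against a median of 761.5 b over the 4895 genes, while CFP1 ended at −93 b at Klf6 and 400.5 b at Klf13.

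**Figure D3:**
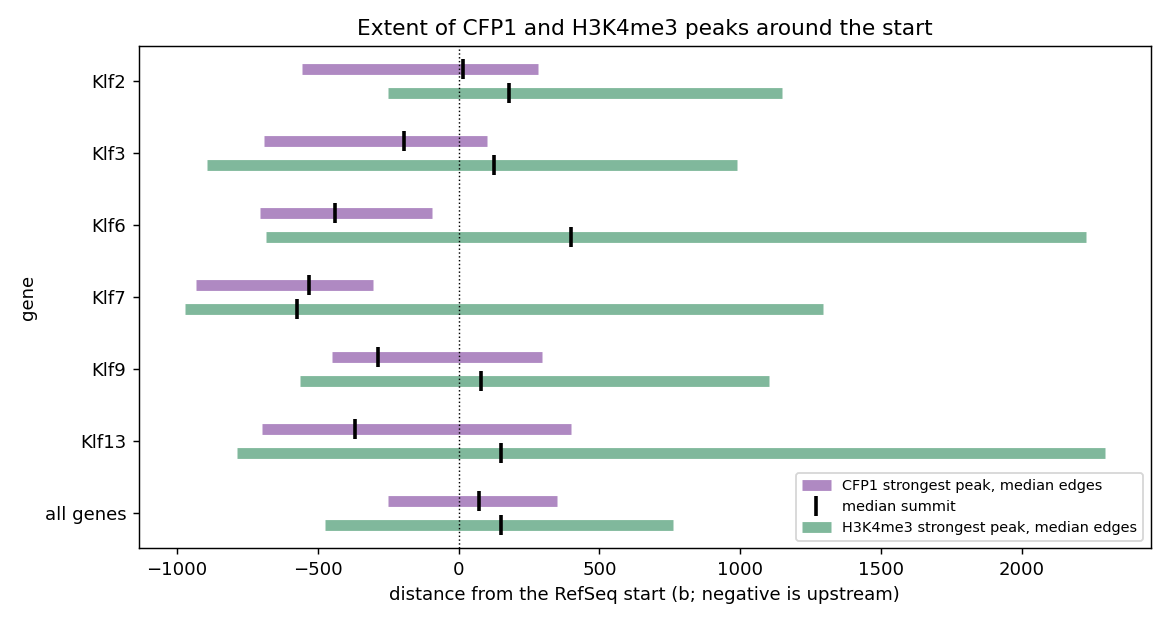
Strongest CFP1 and H3K4me3 peak within 1000 b of the listed start, drawn from median upstream to median downstream edge over the libraries with a peak, with the median summit as a tick; the last row gives medians over 4895 coding genes. The Klf6 and Klf7 CFP1 bars end before the listed start, while H3K4me3 at all 6 genes runs 989 b or more past it. At Klf7 that start, and the CFP1 bar, lie inside the annotated gene.

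At Klf7 the head of the gene is shared. A long non-coding RNA on the other strand, Gm35880, starts 178 b upstream of the listed Klf7 start and 778 b from the outer end of the annotated gene. The region with CFP1 and H3K4me3 in all libraries (chromosome 1, 64119290 to 64122413) spans both starts, so its peaks cannot be given to 1 of them. At Klf12 the only region lay at the outer gene end (chromosome 14, 100284254 to 100286569). It also spans the start of the non-coding Gm41231, 168 b from that end, so its mark cannot be given to 1 of them.

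Further regions lay inside or beside the long genes. At Klf13 (52.6 kb) H3K4me3 marked a region 41 to 42.2 kb downstream of the start in all 12 libraries, within 1 kb of the start of the non-coding Gm27252. At Klf7 (92.9 kb) a region 42.1 to 43.1 kb downstream, within 1 kb of the start of the non-coding Gm13748, was marked in 6 WT and 5 KO libraries. At Klf3 (29.4 kb) a region 8.31 to 10.1 kb downstream, with no listed start within 1 kb, was marked in 5 WT and 6 KO libraries. Upstream of Klf9 (−7.03 to −4.93 kb) the start of 2410080I02Rik, a non-coding gene, was marked in 4 and 4 libraries and held CFP1 in 3 and 1, but it enters the Klf9 window only at its edge. Inside Klf7 and Klf13, CFP1 away from the start was called in 5 regions, all in replicate 2 libraries. The other genes with an end in these windows are Gm38457 and Gm31684 (Klf3), 1700016G22Rik (Klf6), Mir6899 (Klf7), Mir1192 (Klf9), Gm35248 (Klf10), Gm16260 (Klf12) and E030018B13Rik (Klf13), and Klf2 and Klf5 have none.

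H3K4me3 was called at 7 members in all 12 libraries (Klf2, Klf3, Klf6, Klf7, Klf9, Klf10 and Klf13), as at 50.5% of coding genes. The remaining pair had no CFP1 and had H3K4me3 in part of the libraries. At Klf5 it covered 698 and 812 b in WT CCR6+, 0 and 773 b in WT NKp46+ and 518 and 521 b in WT DN libraries, and in KO cells 467 and 853 b, 985 and 1051 b, and 0 and 921 b. At Klf12 it covered 0 and 627 b, 434 and 2316 b, and 0 and 1354 b in WT, and 0 and 1320 b, 1310 and 2121 b, and 656 and 2118 b in KO libraries, in the same order. Klf5 was thus marked in 5 WT and 5 KO libraries, and the Klf12 window, at a region shared with Gm41231, in 4 and 5. More KO than WT libraries were found at 56.6% of the 2109 genes tested. Every unmarked library of the pair was of replicate 1. Neither passed Fisher's exact test between genotypes (adjusted p = 1.0 for both), and 0 of 2109 genes did (0.0%, smallest adjusted p = 0.784), with 31 (1.47%) at an unadjusted p under 0.05, and 34 to 153 without single libraries (152 without KO CCR6+ replicate 1, 153 without KO DN replicate 1). The single Klf5 region (chromosome 14, 99298430 to 99299556) covers the lower end of the annotated gene.

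The length of H3K4me3 cover was compared between genotypes over the 10934 genes marked in 12 libraries, with limma on log2 covered bases, subset as a covariate and Benjamini-Hochberg adjustment. No gene passed (0.0%), 144 (1.32%) had an unadjusted p under 0.05 (76 to 398 without single libraries, 398 without WT NKp46+ replicate 1), the median difference was −0.06, and 71.1% of genes were lower in KO. Among the 7 members 4 were lower and the median difference was −0.16. Differences of KO less WT on the log2 scale were −0.25 ± 0.27 (SE, 6 and 6 libraries) at Klf3, −0.22 ± 0.20 at Klf6, −0.16 ± 0.20 at Klf13, 0.03 ± 0.27 at Klf7, 0.04 ± 0.26 at Klf2 and 0.07 ± 0.09 at Klf10, each with a limma adjusted p of 1.0. Leaving out single libraries moved them between −0.45 and −0.07 at Klf3, −0.33 and −0.07 at Klf6 and −0.29 and −0.03 at Klf13, nearest to 0 without KO CCR6+ replicate 1 at all 3 genes. At Klf2, where CFP1 was called in 5 WT and 1 KO libraries, H3K4me3 covered 645 to 1665 b in WT (median 1385) and 781 to 1814 b in KO (median 1345.5).

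Klf9 was the member with the lowest difference. In WT it had 1844 and 2319 b in CCR6+, 1724 and 2549 b in NKp46+ and 1590 and 2438 b in DN libraries. In KO it had 1024 and 1743 b, 1714 and 1815 b, and 1114 and 1804 b. When WT and KO libraries of equal subset and number were set against each other, KO was lower in 6 of 6, though the ranges overlapped. The log2 difference was −0.45 ± 0.20 (SE, a ratio of 0.731), with a limma p of 0.0427 before and 1.0 after adjustment, and 3.59% of genes were as low or lower. It was −0.46 within replicate 1 and −0.45 within replicate 2. With each library centred on its own median over the genes tested, which moved the median of all genes from −0.06 to about 0 (−0.00717), the difference was −0.40 ± 0.07 (SE) with a limma adjusted p of 0.0491, and 32 genes (0.293%) passed, 24 (0.219%) of them lower in KO. That call is absent without centring, and with the 1 kb around both gene ends the uncentred difference was −0.18.

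Klf10 stood at the other end in spread. Its single H3K4me3 peak covered 2221 to 2416 b in WT (median 2323) and 2349 to 2540 b in KO (median 2484.5), with an SD of 66.1 and 83.6 b. Klf7 varied most in KO, from 1457 b in DN replicate 1 to 6057 b in NKp46+ replicate 2, which had 6 separate peaks in the window. At Klf13 H3K4me3 covered 3508 to 5727 b in WT and 2815 to 5427 b in KO libraries, and at Klf6 2643 to 3562 b and 1751 to 3750 b. At Klf3 it covered 1756 to 4837 b and 1794 to 3823 b. In all 5 of these genes the lowest KO library was of replicate 1. Of the 10934 genes, 0 differed between subsets (limma F test, 0.0% adjusted, 32 or 0.293% unadjusted), and 0 had a genotype difference that varied with subset (0.0% adjusted, 13 or 0.119% unadjusted), and each of the 7 members had an adjusted p of 1.0 in both tests. Without single libraries the unadjusted counts ran from 20 to 98 for subsets (98 without KO CCR6+ replicate 1) and from 2 to 388 for the varying difference (388 without KO CCR6+ replicate 2), and they were 284 and 309 with the replicate block and 432 and 208 with centring.

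**Figure D4:**
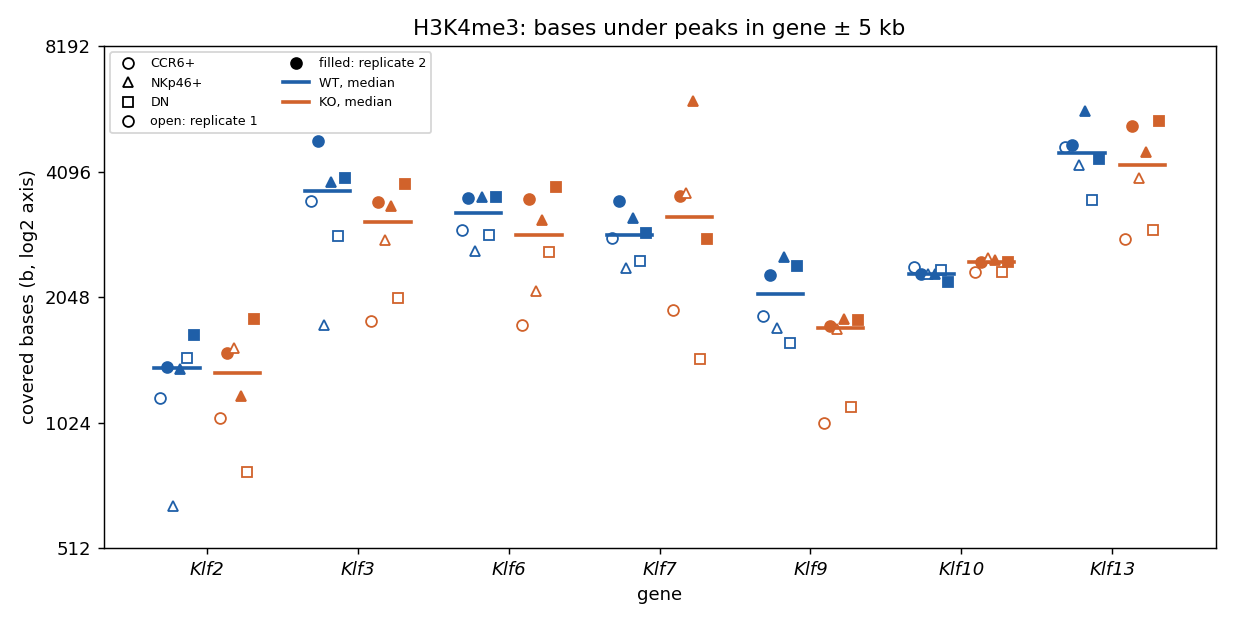
H3K4me3 covered bases (log2 axis) in each library for the 7 members marked in all 12 libraries, with symbols as for CFP1 and bars at the median of 6 libraries. Klf10 stays within 2221 to 2540 b in all 12 libraries, and Klf9 is the only gene shown with KO lower in 6 of 6 pairs.

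The gene whose H3K4me3 cover, centred on library medians, was most like a member's over the 12 libraries, out of 10933 genes, was Srprb for Klf2 (Pearson r = 0.883), Meox1 for Klf3 (0.919), Csnk1d for Klf6 (0.957), Plekha4 for Klf7 (0.872), Snx33 for Klf9 (0.918), Epp13 for Klf10 (0.992) and Dusp3 for Klf13 (0.818). These are the highest of many values over shared libraries and are given as a description. Klf10 covered 2221 to 2540 b before centring, so its centred values largely reflect the library medians subtracted, as for any gene of steady cover.

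Of the 8 Krüppel-like factors outside the 9, CFP1 was called at 4, with fewer KO libraries at 3 and none with more. Klf4, a regulator of quiescence and differentiation, had it in 5 WT and 2 KO libraries (Fisher's exact adjusted p = 0.485), and Klf1, the erythroid factor, in 5 and 1 (adjusted p = 0.319). Of 9 Sp genes, which encode related zinc-finger factors that bind GC boxes, 5 had CFP1, 3 with fewer KO libraries. Sp3 had it in 6 and 2 (Fisher's exact adjusted p = 0.302), and Sp7, a bone factor, had H3K4me3 in 1 WT and 4 KO libraries and no CFP1. Of 14 cofactors and regulators, 11 had fewer KO libraries and none more. Over all 7711 genes tested, 88.7% had fewer KO libraries, so these counts are not particular to the lists. Wwp1, a ubiquitin ligase known to act on Klf2 and Klf5, had CFP1 in 5 WT and 0 KO libraries (Fisher's exact p = 0.0152, adjusted p = 0.236, below which no gene of the table went). Ctbp1, a corepressor bound by Klf3 and Klf12, had 5 and 1, Mef2d and Map2k5, of the pathway that induces Klf2, had 6 and 2 and 3 and 0, and the acetyltransferase Ep300 had 6 and 3. Foxo1, which activates Klf2 in T cells, had 6 and 3, all 3 KO libraries of replicate 2 (adjusted p = 0.467). Of 6 trafficking genes regulated by Klf2 in T cells, 4 had fewer and 1 more KO libraries with CFP1, none by 3 or more. No gene of these lists passed for either antibody, against 0.0% of all genes tested. Over the genes tested for CFP1, the median difference was −2.5 libraries for 4 members, −3 for 3 other Krüppel-like genes, −3 for 2 Sp genes, −3 for 9 cofactors and regulators and −1.5 for 4 trafficking genes, beside −2 over all 7711. These genes are the ones with CFP1 in 2 to 10 libraries, so members with it in 0, 11 or 12 are not among them. H3K4me3 was in all 12 libraries at 4 of 8, 5 of 9, 13 of 14 and 3 of 6 genes of these lists.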

How the data were processed

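The submitters' processing notes name the mm10 build and, as tools, MACS2 2.2.7.1, Bowtie2 2.3.5.1, fastp 0.19.7, ChIPseeker 1.28.3 and Picard. How these were set, whether duplicates were removed and whether a control was used is not given in the sources used here. For every library the authors deposited a list of peaks holding position, summit, fold enrichment (a ratio), −log10 p-value and −log10 q-value. The lowest −log10 q was 1.3 to 1.42 per list, equal to a q-value cut at 0.05. Fold enrichment was used only to rank or filter peaks within a list. Since depth is unknown, no counting interval is given.

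A gene held a peak where a peak overlapped it, with 5 kb on either side, by 1 b or more, and covered bases are the union of peaks inside that window. Gene positions (RefSeq, GRCm38.p6) are 1-based, and 7 of the 9 members matched an entry of the RefSeq promoter table, with Klf5 and Klf10 unmatched. Tests were Fisher's exact test (6 against 6, or 4 against 8 libraries), an exact permutation of genotype within subsets (216 arrangements, smallest p = 0.00926) for CFP1 covered bases, and limma for log2 H3K4me3 covered bases, all fitted over the whole table and adjusted by Benjamini-Hochberg with a threshold of 0.05. In the 6 against 6 Fisher's test the smallest p is 0.00216. Without the 2 long KO lists the permutation has fewer arrangements, and its smallest p is 0.0185. The tests were also run on simulated data. For limma those data held no differences between libraries, so the simulation does not cover lists of unequal length or width. Same-numbered WT and KO libraries deviated together for CFP1 (r = 0.118, 0.248 and 0.285 over genes in CCR6+, NKp46+ and DN cells), while the labels give only the numbers. The CFP1 list of replicate 2 was also the longer in every genotype and subset but KO CCR6+. The part of list length in these r values was not tested, and whether the CFP1 libraries form pairs is not settled. Peak names carry a tag that goes with the replicate number, so the batch of that tag and the number cannot be told apart, and values are given within replicates.

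Named besides the members are listed genes that differed by 3 or more libraries or passed a threshold, Klf4 and Foxo1, the gene most like each member, neighbours with an end in a window, and Cxxc1. Some marker genes and the driver of the Cre are not reported here. The members and lists were chosen with earlier results of these data known. Alternatives were stricter peaks, other windows, a summit in the window, the widest peak, centring, a replicate block, and leaving out libraries. Python 3.11.15, NumPy 2.4.6, pandas 2.3.3, SciPy 1.17.1, matplotlib 3.10.9, R 4.3.3 and limma 3.58.1 were used.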

Additional observations from a re-analysis of the deposited data

How the results depend on the processing

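The count of genes passing for CFP1 presence was 0 as reported and 0 to 340 when single libraries were left out, with 340 without KO DN replicate 2, and 979 without the 2 KO lists picked for their length. For H3K4me3 cover it was 0 as reported, 32 with centring, 4 with the replicate block, and 0 to 1 without single libraries (1 without WT NKp46+ replicate 1). For subset differences it was 0 as reported, 1 with centring, 1 with the replicate block and 0 to 1 without single libraries (1 without KO CCR6+ replicate 1). The cause of these moves was not tested. No other count of calls left 0.

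Same-numbered H3K4me3 libraries correlated at r = 0.0597, 0.127 and 0.249 in CCR6+, NKp46+ and DN cells, lower than for CFP1 in each subset. Their median peak widths also went with the replicate number (791 to 976 b against 1078 to 1193 b). Whether they form pairs is therefore not settled. The replicate block took the unadjusted counts from 31 to 5 for H3K4me3 presence and from 144 to 1082 for H3K4me3 cover, and changed no member's call (Klf9, limma adjusted p = 0.208).

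Among members, Klf9 for H3K4me3 cover passed only with centring (log2 difference −0.40). CFP1 covered bases at Klf6 were 54.7 b higher in KO with a −log10 q of 5 or more, and ran from −388 to 157 b without single libraries, while Klf7 ran from −425 to 144 b. On the log2 scale, the H3K4me3 difference turned to 0.98 at Klf13 with a fold enrichment of 5 or more. With 1 kb around both gene ends it was −0.0052 at Klf2, 0.0027 at Klf6 and 0.0037 at Klf13. It was −0.029 at Klf7 for the widest peak. Without single libraries it ran from −0.16 to 0.24 at Klf2 and from −0.16 to 0.20 at Klf7. Depth limits all of this: a shallower list can miss a peak or narrow it.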
